A study of Mus musculus with 20 samples.

Results

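The genes described here encode the protein subunits of the mitochondrial respiratory chain, complexes I to V, in whole brain of C57BL/6J mice. They were chosen by a rule on gene names, set with earlier results of these data known. It took every probe set with a single gene symbol that begins with Nduf, Uqcr, Atp5 or Cox4 to Cox8, or that is Sdha to Sdhd or Cyc1. The brightest probe set on average was kept for each gene. The rule found 91 of the 18193 genes on the arrays: 44 for complex I, 4 for complex II, 9 for complex III, 17 for complex IV and 17 for complex V. It also takes in 8 complex I assembly factors, which help to build the enzyme and are not part of it, and Ndufa4, Ndufa4l2 and Cox7a2l, whose symbols are older than their present placement and which are counted here by their prefix. Of the 91 genes, 90 passed the filter on low signal (a mean log2 signal of 5.45 over all arrays) and were tested among 13389 genes. Cox7b2, a testis isoform, had a mean of 5.38 and was not tested.

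The study set aging beside loss of alpha7, a nicotinic acetylcholine receptor subunit that Chrna7 encodes. Each of 4 groups held 5 mice, each animal with an array and a number of its own: wild-type mice at 8 weeks (young), wild-type mice at 2 years (aged), alpha7-/- mice at 8 weeks and alpha7-/- mice at 2 years. All were labelled C57BL/6J, and total RNA came from the whole brain. The alpha7-/- mice, called alpha7-deficient below, are named in the labels with no limit to a tissue or a time. The sources used here do not give the origin of the line, its backcrossing or the sex of the animals. Chrna7 checked the labels. Its log2 signal was 8.35, 8.85, 8.79, 9.16 and 8.71 in young and 8.71, 8.65, 8.62, 8.55 and 8.47 in aged wild-type brains. In alpha7-deficient brains Chrna7 read 5.49, 5.2, 5.65, 6.41 and 6 at 8 weeks and 5.58, 5.5, 5.44, 5.22 and 5.61 at 2 years. The groups of the 2 genotypes did not overlap at either age, and the deficit was -3.02 (SE 0.18, adjusted p = 4.96e-10) at 8 weeks and -3.13 (SE 0.18, adjusted p = 2.37e-10) at 2 years.

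The respiratory chain sits in the inner mitochondrial membrane. Complexes I and II take electrons from NADH and succinate and hand them to ubiquinone, complex III passes them to cytochrome c, and complex IV gives them to oxygen. Complexes I, III and IV pump protons out of the matrix, and complex V, the ATP synthase, lets them back in to make ATP. Neurons draw most of their ATP from this chain. Nearly all of its subunits are encoded in the nucleus and imported, while a few core subunits of complexes I, III, IV and V are encoded in mitochondrial DNA.

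All values are the signals the authors deposited, on a log2 scale, and a difference is a log2 difference. Differences and their standard errors come from limma, fitted over all 20 arrays. Its p-values were adjusted over the 13389 genes by the Benjamini-Hochberg method, and a gene with an adjusted p below 0.05 is said to be called. In whole-brain RNA, fewer cells of a type and less RNA per cell cannot be told apart. Array medians ran from 61.3 to 79 signal units. The 99th percentile of the log2 signal, a measure of the bright end, ran from 12.03 to 12.43, and every comparison was also made after quantile normalization, which gives all arrays the same distribution. The labels' animal numbers set 3 mice apart from the other animals of their group: replicate 5 of the young wild-type mice, and replicates 1 and 2 of the aged alpha7-deficient ones. Their arrays had the lowest median signals, 61.3, 66 and 62.3, and the highest median level over the 90 respiratory chain genes. The log2 ratio of 3' to 5' signal of the control probe sets, higher with shorter RNA or cDNA, was 2.03, 2.06 and 2.22. Only young wild-type replicate 4 (2.65) and young alpha7-deficient replicate 5 (2.37) had higher ratios. Xist, which marks cells of female mice, was low on all 3 (6.43, 6.86 and 6.23). The counts for age in each genotype, and the values of some genes, are given with and without these 3 mice. The sources used here do not say what the numbers stand for.

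Respiratory chain transcripts were higher at 2 years than at 8 weeks in alpha7-deficient brains. Of the 90 tested genes 36 rose and 0 fell, against 7.82% of all genes that rose and 6.87% that fell. The median difference over the 90 genes was 0.27, against 0.00 over all genes, and 83 of the 90 lay above 0, against 50.3% of all genes. In wild-type brains 1 gene, Cox8b, rose and 0 fell, against 0.485% and 0.284% of all genes, and the median difference was 0.04, against 0.01, with 54 of the 90 above 0, against 51.5% of all genes. Leaving out an array at a time moved that median from -0.0099, without young wild-type replicate 2, to 0.11, without young wild-type replicate 5, so its sign rested on single arrays. At an unadjusted p under 0.05, limma gave 4 of the 90 in wild-type brains, against 12.8% of all genes. Averaged over the genotypes, 25 rose and 1, Atp5mpl, fell, against 9.12% and 8.42% of all genes. The 36 were spread over all 5 complexes: 16 of 44 in complex I, 2 of 4 in complex II, 4 of 9 in complex III, 7 of 16 in complex IV and 7 of 17 in complex V. Their medians were 0.25, 0.26, 0.33, 0.29 and 0.22 in that order, and 0.00, 0.06, 0.02, 0.08 and 0.04 in wild-type brains. Whether the age differences differed between the genotypes was tested as the interaction of age and genotype, which called 0 of the 90, with 0.605 as the lowest adjusted p among them. At an unadjusted p under 0.05 it gave 29 of the 90, or 32.2%, against 8.01% of all genes, and 80 of the 90 leaned to a larger age difference in alpha7-deficient brains, against 50% of all genes. After quantile normalization 65 of the 90 leaned that way, against 53.4% of all genes. The 90 genes share arrays and vary together, so these counts are a description and not a test. For 34 of the 90 (37.8%) the aged and young alpha7-deficient arrays did not overlap, the aged ones being higher, against 7.3% of all genes. In wild-type brains this held for 1 gene, Cox8b, against 1.58%. Without aged alpha7-deficient replicate 1 the count of 36 was 17, and without young alpha7-deficient replicate 2 or 3 it was 21; without young wild-type replicate 5 the averaged count of 26 was 43. Without young wild-type replicate 1 the wild-type count was 2. The shares of all genes called with an array left out are not given here.

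**Figure D1:**
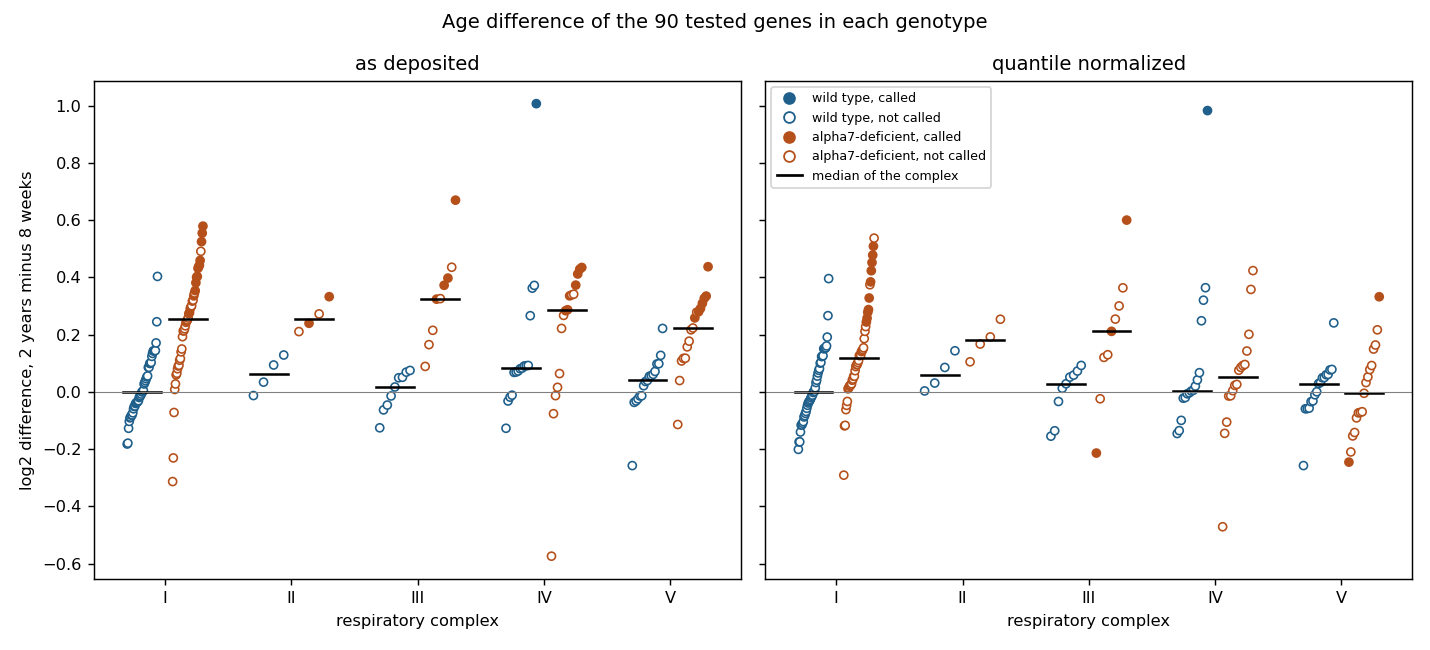
Log2 difference between 2 years and 8 weeks for each of the 90 tested genes, by complex (horizontal axis), in wild-type (blue) and alpha7-deficient (brown) brains, as deposited (left) and after quantile normalization (right); filled points are called at an adjusted p under 0.05 and bars are medians of the complex. As deposited, the alpha7-deficient medians lie between 0.22 and 0.33; after quantile normalization those of complexes I, II and III are 0.12, 0.18 and 0.21 and those of complexes IV and V are 0.05 and -0.01.

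Scaling changed these counts. After quantile normalization 13 of the 90 rose with age in alpha7-deficient brains and 2, Atp5mpl and Uqcrb, fell, against 6.74% and 6.93% of all genes, and the median fell to 0.10. All 13 were among the 36: Ndufv1, Ndufv2, Ndufs3, Ndufs7, Ndufa6, Ndufa10, Ndufb7, Ndufb10, Ndufaf3 and Ndufaf8 of complex I, Cyc1 and Uqcr10 of complex III and Atp5g2 of complex V. Complex I kept 10 of its 16 calls and complex IV kept 0 of 7. The tested core subunits of complex I, the conserved part that takes electrons from NADH to ubiquinone, had 4 of 6 called under both scalings (Ndufv1, Ndufv2, Ndufs3 and Ndufs7). As deposited but without the 3 mice with distant animal numbers, Ndufv1 (adjusted p = 0.0546) and Ndufs3 (adjusted p = 0.0586) were not called. Ndufv2 (adjusted p = 0.014) and Ndufs7 (adjusted p = 0.0277) were. The widely expressed complex IV subunits had 7 of 9 called as deposited and 0 of 9 after quantile normalization, with medians of 0.34 and -0.01. The ATP synthase F1 part, which makes ATP, had 4 of 5 and then 0 of 5. In wild-type brains Cox8b alone was called after quantile normalization, against 0.478% of all genes higher and 0.314% lower, and the median was 0.01. Averaged over the genotypes 15 genes rose and 3 fell, Atp5mpl, Uqcrb and Cox7a2, against 9.01% and 9.04% of all genes.

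Most of these genes are among the brightest on the arrays. Of the 90, 67 lay at or above the 90th percentile of mean signal, from log2 10.68 up, with 1339 genes in all. In that top bin 23.9% of all genes rose with age in alpha7-deficient brains as deposited, while 34 of the 67 respiratory chain genes did. The other 1272 genes of the bin had a median difference of 0.10, with 286 higher and 76 lower, and the 67 had a median of 0.29. After quantile normalization 9.26% of the top bin, made again on the new values, rose and 11 of the 67 did, with medians of -0.03 for the other 1272 genes and 0.10 for the 67. In wild-type brains the same 1272 genes had a median of 0.00 and the 67 a median of 0.04. The medians of the 9 lower bins of equal size in alpha7-deficient brains ran from -0.07 to 0.02. The share of the difference that comes from the scaling of bright probe sets was not tested.

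**Figure D2:**
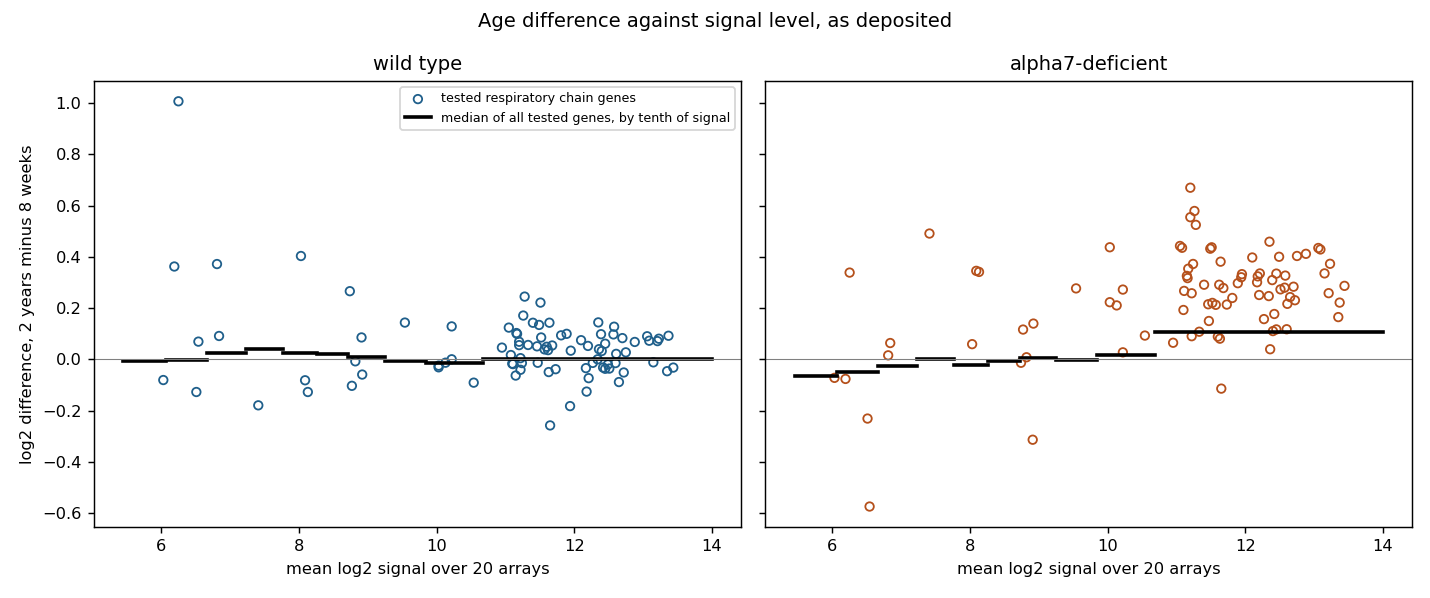
Log2 difference between 2 years and 8 weeks (vertical axis) against mean log2 signal over the 20 arrays (horizontal axis), as deposited, in wild-type (left) and alpha7-deficient (right) brains; circles are the 90 tested respiratory chain genes and black steps are medians of all tested genes in 10 bins of signal. In alpha7-deficient brains the median of the top bin is 0.11 and most circles in it lie above that step; in wild-type brains it is 0.00.

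Levels by array showed which animals carried the difference. For each array the median over the 90 genes was taken of each gene's deviation from its mean over all arrays. As deposited it was 0.06, -0.17, -0.11, -0.10 and 0.25 in young wild-type brains and -0.04, 0.02, 0.05, 0.03 and 0.05 in aged ones. In alpha7-deficient brains it was -0.17, -0.18, -0.17, -0.06 and -0.02 at 8 weeks and 0.30, 0.17, 0.06, 0.09 and 0.07 at 2 years. The aged and young alpha7-deficient arrays did not overlap. Young wild-type arrays spanned the widest range, and replicate 5 among them lay above every aged wild-type array. Without the 3 mice with distant animal numbers, 21 genes rose in alpha7-deficient brains and 0 fell, against 4.05% and 3.86% of all genes. Of the 21, 20 were among the 36, and the median was 0.20. In wild-type brains 2 rose, Cox8b and Ndufb10, and 0 fell, against 1.11% and 0.762% of all genes, and the median was 0.11. The median difference between the age effects was 0.21 with the 3 mice and 0.08 without them. With quantile normalization as well, 4 of the 90 genes rose in alpha7-deficient brains (Ndufs7, Ndufv2, Ndufa10 and Uqcr10). That is 4.44%, near the 3.32% of all genes that rose. Uqcrb alone fell, or 1.11%, against 3.74% of all genes. The median over the 90 genes was then 0.06 in alpha7-deficient brains, and the median difference between the age effects was 0.02.

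**Figure D3:**
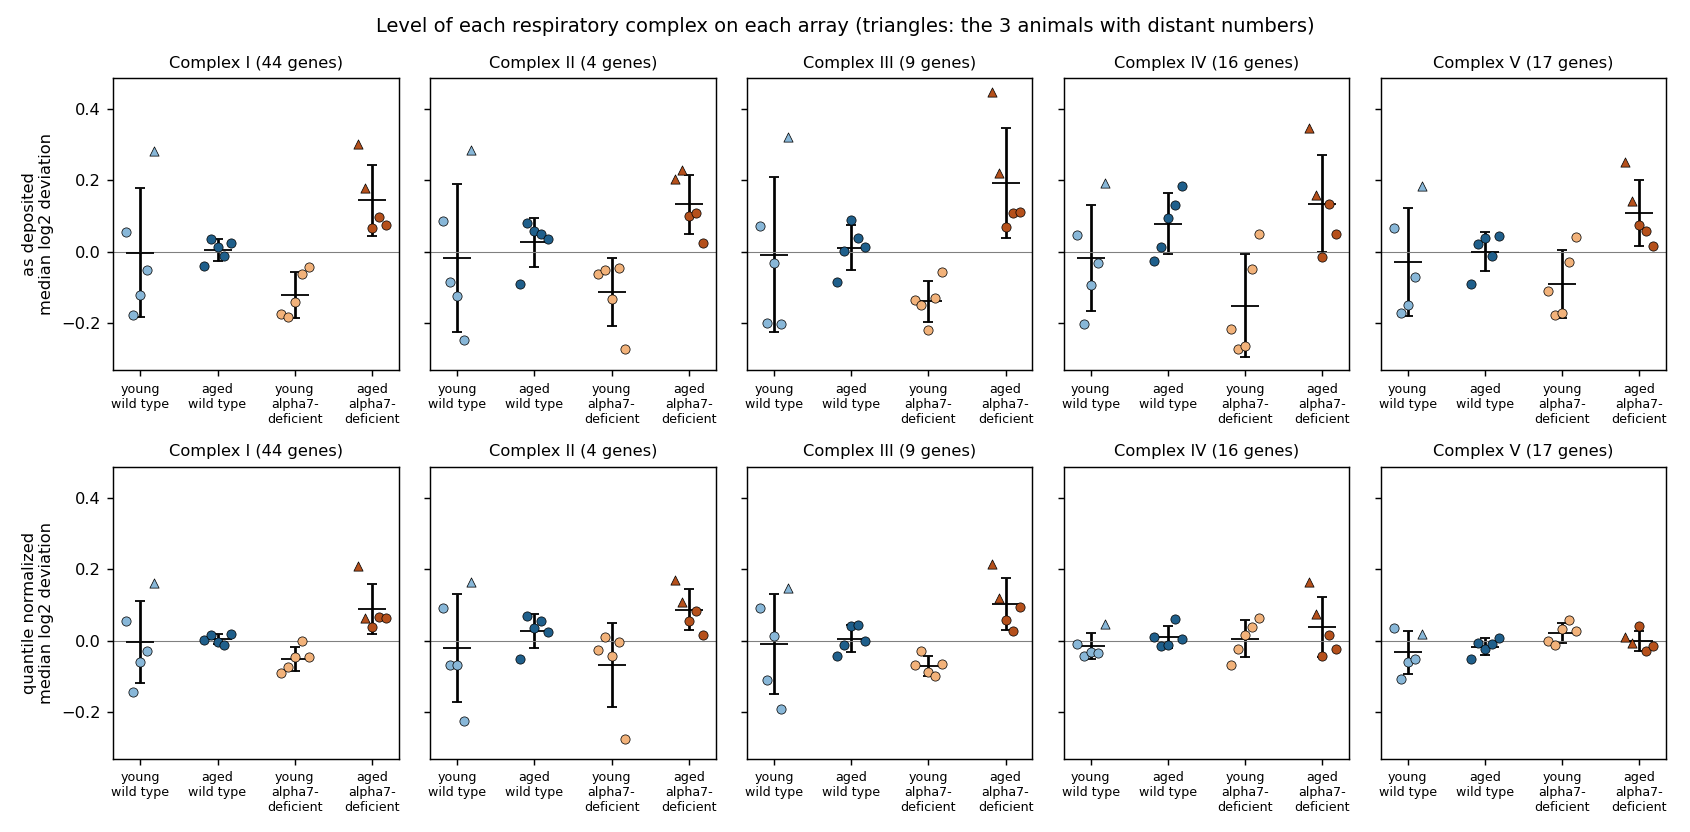
Level of complexes I to V on each array (vertical axis: median over the complex's genes of the log2 deviation from each gene's mean over 20 arrays), by group, as deposited (top) and after quantile normalization (bottom); bars are means and whiskers SD over 5 arrays, and triangles are the 3 mice with distant animal numbers. As deposited, complex I runs from -0.18 to -0.04 in young and from 0.07 to 0.30 in aged alpha7-deficient brains; for complex V the quantile-normalized ranges are -0.01 to 0.06 and -0.03 to 0.04.

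Since many of these genes moved together, their promoters were read for the binding words of factors known to act on respiratory genes: NRF-1 (GCGCA, any base, then GCGC), GABP and other ETS factors (CCGGAAG), YY1 (AAGATGGC), Sp1 (GGGCGG), ERRA (TCAAGGTCA) and the CCAAT box (CCAAT), each on both strands. RefSeq promoters of the GRCm38.p6 build, from 250 bases before to 50 after the start, were matched for 74 of the 91 genes, with 79 promoters. The stretches below are the 120 bases just before the start, 5′ to 3′ on the strand of the gene, for a gene called in alpha7-deficient brains from each complex with an NRF-1 or ETS word there, and for Uqcr10, the gene with the largest rise, which has neither. Capitals mark NRF-1 and ETS words on either strand.
Ndufs3: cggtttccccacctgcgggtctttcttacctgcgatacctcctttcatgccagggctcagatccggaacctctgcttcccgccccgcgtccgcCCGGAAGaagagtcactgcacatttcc
Sdha: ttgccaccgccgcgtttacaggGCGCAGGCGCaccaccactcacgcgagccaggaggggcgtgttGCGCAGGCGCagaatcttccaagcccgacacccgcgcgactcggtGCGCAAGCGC
Uqcrh: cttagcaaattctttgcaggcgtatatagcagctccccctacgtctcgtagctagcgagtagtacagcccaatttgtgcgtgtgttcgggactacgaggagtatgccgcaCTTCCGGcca
Cox6a1: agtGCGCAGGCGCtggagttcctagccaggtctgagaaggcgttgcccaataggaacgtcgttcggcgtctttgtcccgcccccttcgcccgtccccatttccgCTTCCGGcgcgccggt
Atp5g2: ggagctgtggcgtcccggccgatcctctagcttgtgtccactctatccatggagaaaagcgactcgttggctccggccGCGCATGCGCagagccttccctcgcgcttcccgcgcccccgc
Uqcr10: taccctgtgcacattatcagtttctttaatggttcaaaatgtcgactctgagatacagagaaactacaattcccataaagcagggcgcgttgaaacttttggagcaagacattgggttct
They lie at chr2:90904722-90904841, chr13:74350241-74350360, chr4:116075071-116075190, chr5:115348959-115349078, chr15:102671048-102671167 and chr11:4704345-4704464 in that order, all on the minus strand. The Sdha stretch holds the NRF-1 word 3 times, that of Cox6a1 holds an NRF-1 and an ETS word, that of Atp5g2 an NRF-1 word, and those of Ndufs3 and Uqcrh an ETS word each.

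Over all 79 promoters the NRF-1 word was in 22.8%, against 4.6% of all 32851 RefSeq promoters of the same length. The ETS word was in 24.1%, against 8.86%, and the YY1 word in 12.7%, against 2.75%. The ERRA word was in 2.53%, against 0.423%, the Sp1 word in 45.6%, against 35.7%, and the CCAAT box in 41.8%, against 37.4%. An NRF-1 or ETS word was in 14 of the 31 matched genes called higher in alpha7-deficient brains (45.2%) and in 18 of the 43 not called (41.9%), against 14% of all genes. The 43 include Cox7b2, which was not tested. A match is a word in the sequence and not a bound site.

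In complex I, the core subunits Ndufs7 and Ndufv2 and the accessory subunit Ndufa10 had the smallest adjusted p for age averaged over the genotypes. Ndufs7 holds the iron-sulfur cluster that passes electrons to ubiquinone. In wild-type brains Ndufs7 read 11.43, 10.89, 10.97, 10.82 and 11.57 at 8 weeks and 11.35, 11.43, 11.39, 11.26 and 11.48 at 2 years. In alpha7-deficient brains Ndufs7 read 11.07, 11.04, 11.08, 11.13 and 10.93 at 8 weeks and 11.84, 11.73, 11.41, 11.4 and 11.5 at 2 years. All 5 aged alpha7-deficient values lay above all 5 young ones, while the wild-type groups overlapped through young replicates 1 and 5. The age difference of Ndufs7 was 0.24 (SE 0.119, adjusted p = 0.394) in wild-type and 0.52 (SE 0.119, adjusted p = 0.0068) in alpha7-deficient brains. A second probe set of the gene gave 0.27 and 0.59. Ndufv2 is the iron-sulfur subunit beside the flavin at the NADH end. In wild-type brains Ndufv2 read 11.71, 11.42, 11.51, 11.27 and 11.91 at 8 weeks and 11.7, 11.69, 11.77, 11.75 and 11.62 at 2 years. In alpha7-deficient brains Ndufv2 read 11.47, 11.45, 11.35, 11.51 and 11.47 at 8 weeks and 11.92, 11.86, 11.78, 11.81 and 11.77 at 2 years. The aged alpha7-deficient arrays spanned little and stood clear of the young ones. The age difference of Ndufv2 was 0.14 (SE 0.0856, adjusted p = 0.499) in wild-type and 0.38 (SE 0.0856, adjusted p = 0.00636) in alpha7-deficient brains. The probe sets of Ndufv2 disagreed: the next brightest gave 0.09 and 0.31, and another, with a mean log2 signal of 10.87, gave -0.17 and 0. Ndufa10 is an accessory subunit on the matrix side. In wild-type brains Ndufa10 read 11.37, 11, 11.03, 10.82 and 11.56 at 8 weeks and 11.32, 11.18, 11.44, 11.44 and 11.27 at 2 years. In alpha7-deficient brains Ndufa10 read 11.14, 10.98, 10.89, 10.92 and 11.01 at 8 weeks and 11.98, 11.74, 11.31, 11.39 and 11.41 at 2 years. The aged alpha7-deficient group was led by replicates 1 and 2, and replicates 3 to 5 still lay above every young alpha7-deficient array. Its age difference was 0.58 (SE 0.127, adjusted p = 0.00558) in alpha7-deficient and 0.17 (SE 0.127, adjusted p = 0.599) in wild-type brains, the first a 1.49-fold rise. A much dimmer probe set of Ndufa10 read -0.11 in alpha7-deficient brains.

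Other complex I genes illustrate the range. Ndufs8, a core subunit with iron-sulfur clusters, had the largest difference between the age effects in the core, 0.50 (unadjusted p = 0.0164, adjusted p = 0.605). In wild-type brains Ndufs8 read 11.99, 11.71, 11.76, 12 and 12.54 at 8 weeks and 11.48, 11.89, 11.9, 11.99 and 11.83 at 2 years. In alpha7-deficient brains Ndufs8 read 11.75, 11.61, 11.77, 11.92 and 11.98 at 8 weeks and 12.43, 12.34, 11.84, 11.96 and 12.06 at 2 years. The high values were those of the 3 mice with distant animal numbers, and Ndufs8 was not called for age in either genotype (adjusted p = 0.604 and 0.116). Without the 3 mice its age difference was -0.05 in wild-type and 0.15 in alpha7-deficient brains. The next brightest probe set of Ndufs8 gave -0.02 in wild-type and 0.38 in alpha7-deficient brains, and the one after it 0.01 and 0.16. Ndufb9 is an accessory subunit of the membrane arm. In wild-type brains Ndufb9 read 12.82, 12.57, 12.64, 12.43 and 13.29 at 8 weeks and 12.71, 12.81, 12.83, 12.7 and 12.84 at 2 years. In alpha7-deficient brains Ndufb9 read 12.48, 12.49, 12.49, 12.71 and 12.48 at 8 weeks and 13.17, 13, 12.85, 12.91 and 12.74 at 2 years. Young alpha7-deficient replicate 4 stood above the other young arrays of its group, and all aged ones lay above it. Ndufb9 had an age difference of 0.40 (SE 0.112, adjusted p = 0.0199) in alpha7-deficient brains, 0.03 in wild-type ones and 0.11 (adjusted p = 0.401) in alpha7-deficient brains after quantile normalization. The rest of the 16 called genes lay between 0.25 (Ndufc2) and 0.55 (Ndufb7).

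Of the 8 assembly factors 2 were called in alpha7-deficient brains, with a median of 0.13. Ndufaf8, which works with an enzyme that modifies a core subunit, was 1 of them. In wild-type brains Ndufaf8 read 10.03, 9.88, 9.78, 10.02 and 10.41 at 8 weeks and 9.89, 10.27, 9.97, 9.95 and 9.88 at 2 years. In alpha7-deficient brains Ndufaf8 read 9.67, 9.93, 9.93, 9.78 and 9.88 at 8 weeks and 10.65, 10.44, 10.07, 10.1 and 10.11 at 2 years. Its alpha7-deficient groups did not overlap and its wild-type groups did. The age difference of Ndufaf8 was 0.44 (SE 0.12, adjusted p = 0.0185) in alpha7-deficient and -0.03 (SE 0.12, adjusted p = 0.938) in wild-type brains. Aged alpha7-deficient replicates 1 and 2, both with distant animal numbers, read highest. Without the 3 mice with such numbers the alpha7-deficient difference of Ndufaf8 was 0.26 and was not called (adjusted p = 0.0926). Ndufaf2, a late assembly factor, leaned the other way between genotypes. In wild-type brains Ndufaf2 read 8.07, 7.9, 7.61, 7.43 and 7.97 at 8 weeks and 8.23, 8.35, 8.15, 8.06 and 8.2 at 2 years. In alpha7-deficient brains Ndufaf2 read 7.85, 8.14, 7.96, 8.03 and 8.14 at 8 weeks and 8.25, 8.13, 8.18, 7.84 and 8.02 at 2 years. The wild-type age difference, 0.40 (SE 0.118, adjusted p = 0.129), was the largest of complex I in that genotype and was not called. In alpha7-deficient brains it was 0.06 (SE 0.118, adjusted p = 0.775). Ndufaf4 had the lowest alpha7-deficient value of complex I, -0.31 (SE 0.138, adjusted p = 0.126). In wild-type brains Ndufaf4 read 8.76, 9.11, 9.12, 8.95 and 8.55 at 8 weeks and 9.07, 9.14, 8.77, 8.88 and 9.06 at 2 years. In alpha7-deficient brains Ndufaf4 read 9.07, 9.2, 9.04, 8.92 and 8.91 at 8 weeks and 8.28, 8.41, 9.02, 8.86 and 8.99 at 2 years. The low arrays were those of the 3 mice with distant animal numbers; without them the alpha7-deficient difference was -0.07 (adjusted p = 0.725).

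Complex II is also succinate dehydrogenase of the citric acid cycle. Sdha, its flavoprotein, and Sdhb, its iron-sulfur subunit, rose in alpha7-deficient brains. The membrane anchors Sdhc and Sdhd were not called. In wild-type brains Sdha read 11.84, 11.74, 11.71, 11.63 and 11.94 at 8 weeks and 11.8, 11.91, 11.82, 11.93 and 11.88 at 2 years. In alpha7-deficient brains Sdha read 11.7, 11.66, 11.63, 11.74 and 11.63 at 8 weeks and 11.78, 11.99, 11.91, 11.98 and 11.91 at 2 years. Every aged alpha7-deficient array was above every young one for Sdha, with a narrow spread in all groups. For Sdha the age difference was 0.24 (SE 0.0632, adjusted p = 0.0155) in alpha7-deficient and 0.09 (SE 0.0632, adjusted p = 0.554) in wild-type brains, and 0.10 (adjusted p = 0.222) in the former after quantile normalization. In wild-type brains Sdhb read 11.98, 11.82, 11.81, 11.81 and 12.31 at 8 weeks and 11.97, 11.96, 12.05, 11.94 and 11.96 at 2 years. In alpha7-deficient brains Sdhb read 11.73, 11.73, 11.77, 11.92 and 11.74 at 8 weeks and 12.39, 12.23, 12.05, 12 and 11.89 at 2 years. The 3 mice with distant animal numbers gave the highest Sdhb values, and the other arrays lay close together. Its age difference was 0.33 (SE 0.0934, adjusted p = 0.021) in alpha7-deficient brains and 0.03 in wild-type ones, and the first became 0.20 (adjusted p = 0.059) without the 3 mice and 0.17 (adjusted p = 0.0856) after quantile normalization. In wild-type brains Sdhc read 10.28, 10.04, 10.03, 9.82 and 10.49 at 8 weeks and 9.94, 10.2, 10.28, 10.08 and 10.1 at 2 years. In alpha7-deficient brains Sdhc read 10.17, 10.2, 10.05, 9.98 and 9.8 at 8 weeks and 10.41, 10.42, 10.21, 10.12 and 10.08 at 2 years. For Sdhc the groups overlapped in both genotypes, with 0.21 (SE 0.11, adjusted p = 0.2) in alpha7-deficient and -0.01 (SE 0.11, adjusted p = 0.973) in wild-type brains. In wild-type brains Sdhd read 10.49, 10.14, 10.05, 9.44 and 10.43 at 8 weeks and 10.04, 10.34, 10.21, 10.33 and 10.28 at 2 years. In alpha7-deficient brains Sdhd read 10.2, 10.27, 10.29, 10.35 and 9.51 at 8 weeks and 10.34, 10.1, 10.47, 10.49 and 10.56 at 2 years. The lowest Sdhd values were on young wild-type replicate 4 and young alpha7-deficient replicate 5. Those 2 arrays also had the highest 3' to 5' signal ratio of the control probe sets, 2.65 and 2.37 on the log2 scale, a sign of shorter RNA or cDNA; its part in the Sdhd values was not tested. The age difference of Sdhd was 0.27 (SE 0.165, adjusted p = 0.273) in alpha7-deficient and 0.13 (SE 0.165, adjusted p = 0.786) in wild-type brains.

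Complex III held the largest rise of all 90 genes in alpha7-deficient brains: Uqcr10, a small subunit of the complex, at 0.67 (SE 0.137, adjusted p = 0.00398), or 1.59-fold. In wild-type brains Uqcr10 read 11.35, 10.88, 10.89, 10.99 and 11.73 at 8 weeks and 10.98, 11.34, 11.38, 11.19 and 11.3 at 2 years. In alpha7-deficient brains Uqcr10 read 10.83, 10.78, 10.91, 10.72 and 11.1 at 8 weeks and 11.9, 11.56, 11.34, 11.53 and 11.36 at 2 years. Aged alpha7-deficient arrays all lay above young ones, and the wild-type groups overlapped, with an age difference of 0.07 (SE 0.137, adjusted p = 0.872). After quantile normalization the alpha7-deficient difference was 0.60 (adjusted p = 0.0027). The probe sets of Uqcr10 disagreed: the other 2, dimmer, read 0.14 and 0.04 in alpha7-deficient brains. Cyc1 encodes cytochrome c1, the heme protein that hands electrons to cytochrome c. In wild-type brains Cyc1 read 12.11, 11.85, 12.01, 11.88 and 12.42 at 8 weeks and 12.1, 12.11, 12.18, 12.13 and 12.11 at 2 years. In alpha7-deficient brains Cyc1 read 11.85, 11.82, 11.8, 11.97 and 12.06 at 8 weeks and 12.54, 12.37, 12.21, 12.16 and 12.21 at 2 years. The alpha7-deficient groups stood apart by a small gap and the aged wild-type arrays were nearly equal. The age difference of Cyc1 was 0.40 (SE 0.0916, adjusted p = 0.0074) in alpha7-deficient and 0.07 (SE 0.0916, adjusted p = 0.775) in wild-type brains. Uqcrh, the hinge protein that helps cytochrome c1 meet cytochrome c, gave the smallest unadjusted p of complex III for the difference between the age effects, 0.00484 (difference 0.45, adjusted p = 0.605). In wild-type brains Uqcrh read 12.24, 11.98, 12.28, 11.98 and 12.63 at 8 weeks and 12.09, 12.08, 12.23, 11.99 and 12.1 at 2 years. In alpha7-deficient brains Uqcrh read 11.99, 12.04, 11.8, 12.09 and 12.25 at 8 weeks and 12.36, 12.26, 12.32, 12.31 and 12.53 at 2 years. Its alpha7-deficient groups did not overlap, and the wild-type values leaned the other way: 0.32 (SE 0.102, adjusted p = 0.0354) and -0.13 (SE 0.102, adjusted p = 0.636). After quantile normalization the first was 0.13 (adjusted p = 0.303). A second bright probe set of Uqcrh gave 0.21 in alpha7-deficient and 0.03 in wild-type brains, without the opposite lean.

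Uqcrc2, a core protein on the matrix side, was not called. In wild-type brains Uqcrc2 read 11.53, 11.32, 11.35, 11.37 and 11.64 at 8 weeks and 11.38, 11.47, 11.52, 11.5 and 11.61 at 2 years. In alpha7-deficient brains Uqcrc2 read 11.37, 11.31, 11.34, 11.29 and 11.4 at 8 weeks and 11.73, 11.68, 11.55, 11.34 and 11.51 at 2 years. The young alpha7-deficient arrays were tight and aged replicate 4 lay among them. Uqcrc2 gave 0.22 (SE 0.0764, adjusted p = 0.0603) in alpha7-deficient and 0.05 (SE 0.0764, adjusted p = 0.822) in wild-type brains. Uqcrb, which borders the ubiquinone site, turned direction with the scaling. In wild-type brains Uqcrb read 13.33, 13.28, 13.36, 13.5 and 13.56 at 8 weeks and 13.23, 13.32, 13.48, 13.35 and 13.41 at 2 years. In alpha7-deficient brains Uqcrb read 13.22, 13.02, 13.11, 13.4 and 13.45 at 8 weeks and 13.47, 13.37, 13.29, 13.46 and 13.43 at 2 years. As deposited the alpha7-deficient difference was 0.17 (SE 0.0788, adjusted p = 0.159). After quantile normalization Uqcrb read 13.46, 13.44, 13.52, 13.52 and 13.45 in young and 13.19, 13.22, 13.27, 13.31 and 13.32 in aged alpha7-deficient brains. The aged values then all lay below the young ones, with a difference of -0.21 (adjusted p = 0.0061).

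In complex IV the 7 called genes were Cox4i1, Cox5a, Cox5b, Cox6a1, Cox6b1, Cox7a2 and Cox8a, the isoforms found in most tissues. Cox4i1 and Cox8a are nuclear-encoded subunits bound around the catalytic core. In wild-type brains Cox4i1 read 13.12, 12.82, 12.88, 12.9 and 13.46 at 8 weeks and 12.92, 13.08, 13.2, 13.19 and 13.24 at 2 years. In alpha7-deficient brains Cox4i1 read 12.8, 12.71, 12.71, 12.97 and 12.93 at 8 weeks and 13.41, 13.3, 13.18, 13.27 and 13.13 at 2 years. The aged alpha7-deficient arrays all exceeded the young ones, and young wild-type replicate 5 was the highest of all 20. Cox4i1 had an age difference of 0.43 (SE 0.0987, adjusted p = 0.00676) in alpha7-deficient and 0.09 (SE 0.0987, adjusted p = 0.738) in wild-type brains, and 0.09 (adjusted p = 0.299) in alpha7-deficient brains after quantile normalization. In wild-type brains Cox8a read 12.92, 12.8, 12.9, 12.6 and 13.21 at 8 weeks and 12.92, 12.91, 12.89, 12.98 and 13.07 at 2 years. In alpha7-deficient brains Cox8a read 12.7, 12.51, 12.55, 12.76 and 12.7 at 8 weeks and 13.34, 12.91, 12.93, 13.05 and 13.04 at 2 years. Here too the alpha7-deficient groups were apart and the wild-type groups overlapped. Cox8a gave 0.41 (SE 0.0926, adjusted p = 0.00638) in alpha7-deficient and 0.07 (SE 0.0926, adjusted p = 0.801) in wild-type brains, and 0.10 (adjusted p = 0.363) after quantile normalization in the former. Cox7a2 belongs to the subunits that vary by tissue, in its liver and brain form. In wild-type brains Cox7a2 read 13.47, 13.3, 13.37, 13.58 and 13.69 at 8 weeks and 13.3, 13.4, 13.52, 13.48 and 13.55 at 2 years. In alpha7-deficient brains Cox7a2 read 13.2, 13.09, 13.15, 13.38 and 13.53 at 8 weeks and 13.74, 13.55, 13.46, 13.5 and 13.53 at 2 years. The alpha7-deficient groups overlapped at young replicate 5. Its difference of 0.29 (SE 0.0865, adjusted p = 0.0296) in alpha7-deficient brains became -0.11 (adjusted p = 0.0866) after quantile normalization, and in wild-type brains it was -0.03 as deposited.

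Cox8b, the heart and skeletal muscle isoform of subunit 8, had a signal near the filter. In wild-type brains Cox8b read 5.52, 5.66, 5.69, 5.37 and 5.4 at 8 weeks and 6.51, 6.75, 6.62, 6.56 and 6.23 at 2 years. In alpha7-deficient brains Cox8b read 5.96, 6.2, 6.28, 6.63 and 6.42 at 8 weeks and 6.89, 6.58, 6.4, 6.63 and 6.67 at 2 years. Young wild-type arrays were the low group: all 5 lay below every array of the other 3 groups. The wild-type age difference was 1.01 (SE 0.165, adjusted p = 0.00283), or 2.01-fold, and it remained called under quantile normalization (0.98, adjusted p = 0.00471) and without the 3 mice. In alpha7-deficient brains it was 0.34 (SE 0.165, adjusted p = 0.167). The difference between the age effects was -0.67 (unadjusted p = 0.00889, adjusted p = 0.605), and young alpha7-deficient exceeded young wild-type brains by 0.77 (SE 0.165, adjusted p = 0.487). Of 6 muscle markers 2 passed the filter and 0 were called for age, and the summed log2 signal of the tested markers was 7.16 to 7.92 in young and 7.44 to 7.9 in aged wild-type brains. The other 5 tissue-restricted isoforms tested were not called. Cox7c, by contrast, is widely expressed, but the probe set that the rule left for it was dim. In wild-type brains Cox7c read 6.78, 6.77, 6.58, 7.14 and 5.91 at 8 weeks and 6.52, 6.43, 6.97, 6.82 and 6.79 at 2 years. In alpha7-deficient brains Cox7c read 6.43, 6.37, 6.67, 6.87 and 7.18 at 8 weeks and 5.25, 5.97, 6.33, 6.71 and 6.39 at 2 years. The lowest arrays were the 3 mice with distant animal numbers, and Cox7c gave -0.57 (SE 0.248, adjusted p = 0.12) with them and -0.23 (adjusted p = 0.512) without them.

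In complex V the catalytic F1 part and the c ring held 6 of the 7 called genes. Atp5a1 encodes the alpha subunit of F1. In wild-type brains Atp5a1 read 12.67, 12.51, 12.53, 12.27 and 12.64 at 8 weeks and 12.68, 12.65, 12.64, 12.62 and 12.66 at 2 years. In alpha7-deficient brains Atp5a1 read 12.47, 12.4, 12.36, 12.49 and 12.29 at 8 weeks and 12.83, 12.65, 12.73, 12.68 and 12.75 at 2 years. The aged alpha7-deficient values lay clear of the young ones, and young wild-type replicate 4 was the low wild-type array. Its age difference was 0.33 (SE 0.0668, adjusted p = 0.00394) in alpha7-deficient and 0.13 (SE 0.0668, adjusted p = 0.435) in wild-type brains, and 0.05 (adjusted p = 0.678) in the former after quantile normalization. Atp5c1 encodes gamma, the shaft that turns inside F1. In wild-type brains Atp5c1 read 12.34, 12.22, 12.19, 12.28 and 12.73 at 8 weeks and 12.34, 12.46, 12.4, 12.5 and 12.55 at 2 years. In alpha7-deficient brains Atp5c1 read 12.19, 12.08, 12.08, 12.36 and 12.38 at 8 weeks and 12.64, 12.52, 12.49, 12.58 and 12.41 at 2 years. Young replicates 4 and 5 and aged replicate 5 were close together in the alpha7-deficient brains. Atp5c1 had an age difference of 0.31 (SE 0.0893, adjusted p = 0.024) there and 0.10 in wild-type brains, and 0.08 (adjusted p = 0.364) in alpha7-deficient brains after quantile normalization. A dim second probe set read -0.64. Atp5g2 and Atp5g3 are 2 of the 3 genes for subunit c, whose mature protein they share. In wild-type brains Atp5g2 read 11.73, 11.34, 11.21, 11.01 and 11.67 at 8 weeks and 11.58, 11.55, 11.61, 11.63 and 11.69 at 2 years. In alpha7-deficient brains Atp5g2 read 11.4, 11.23, 11.31, 11.32 and 11.24 at 8 weeks and 11.84, 11.75, 11.79, 11.78 and 11.53 at 2 years. Aged alpha7-deficient arrays all lay above young ones. Atp5g2 gave 0.44 (SE 0.101, adjusted p = 0.00772) in alpha7-deficient and 0.22 (SE 0.101, adjusted p = 0.365) in wild-type brains, and it stayed called after quantile normalization (0.33, adjusted p = 0.0196).

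In wild-type brains Atp5g3 read 13.28, 13.09, 13.12, 13.16 and 13.39 at 8 weeks and 13.18, 13.24, 13.34, 13.31 and 13.33 at 2 years. In alpha7-deficient brains Atp5g3 read 12.98, 12.91, 12.86, 13.16 and 13.36 at 8 weeks and 13.39, 13.38, 13.27, 13.28 and 13.23 at 2 years. Young alpha7-deficient replicate 5 of Atp5g3 lay among the aged arrays. Its difference of 0.26 (SE 0.0808, adjusted p = 0.0349) became -0.09 (adjusted p = 0.126) after quantile normalization. Atp5mpl, a small membrane protein of the ATP synthase dimer, was the single gene of the 90 called lower, for age averaged over the genotypes (-0.19 (SE 0.0596, adjusted p = 0.0347)). In wild-type brains Atp5mpl read 11.57, 11.65, 11.73, 11.83 and 11.94 at 8 weeks and 11.4, 11.64, 11.37, 11.31 and 11.71 at 2 years. In alpha7-deficient brains Atp5mpl read 11.69, 11.66, 11.7, 11.81 and 11.84 at 8 weeks and 11.75, 11.53, 11.5, 11.71 and 11.64 at 2 years. Young and aged arrays overlapped in both genotypes. The difference of Atp5mpl was -0.26 in wild-type and -0.11 in alpha7-deficient brains as deposited, and -0.26 and -0.25 (adjusted p = 0.0879 and 0.0242) after quantile normalization. Without the 3 mice it was not called (adjusted p = 0.0634 for the averaged difference). Of the peripheral stalk, which holds F1 still, 0 of 4 genes were called under either scaling.

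**Figure D4:**
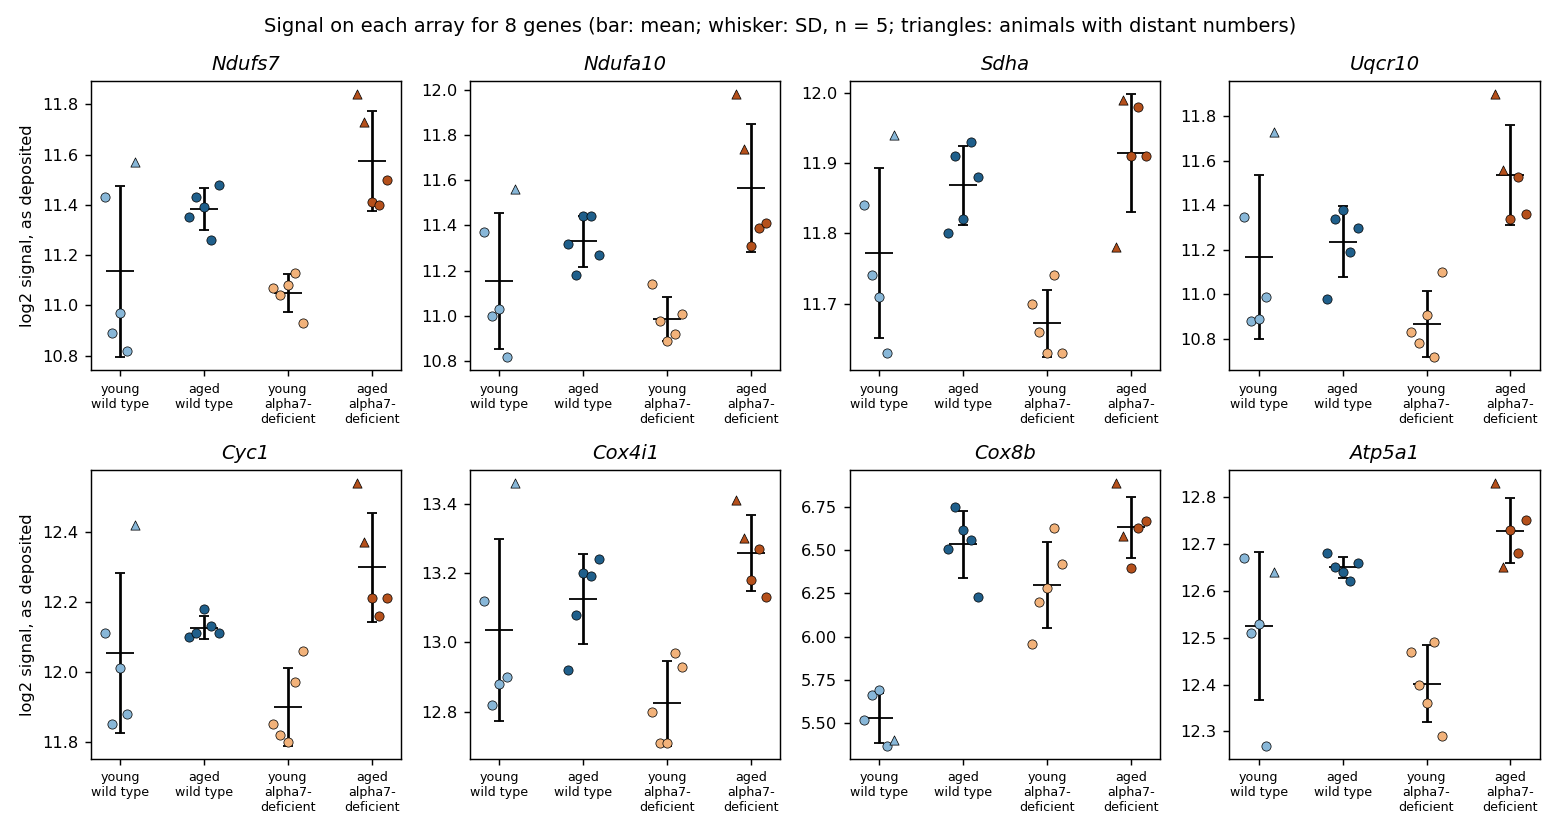
Log2 signal as deposited (vertical axis, not starting at 0) on each array, by group, for Ndufs7, Ndufa10, Sdha, Uqcr10, Cyc1, Cox4i1, Cox8b and Atp5a1; bars are means and whiskers SD over 5 arrays, and triangles are the 3 mice with distant animal numbers. Uqcr10 runs from 10.72 to 11.10 in young and from 11.34 to 11.90 in aged alpha7-deficient brains, and Cox8b from 5.37 to 5.69 in young and from 6.23 to 6.75 in aged wild-type brains.

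Genotype was compared at each age with the same arrays that enter the age comparisons, so the values are given side by side. At 8 weeks the alpha7-deficient brains had a median difference from wild type of -0.10 over the 90 genes, and at 2 years 0.12. The first was -0.0378 without young wild-type replicate 5, and the second 0.0809 without aged alpha7-deficient replicate 1, both among the 3 mice with distant animal numbers. No gene of the 90 was called at either age or for the average of the ages, against 0% of all genes higher and 0.00747% lower, with lowest adjusted p-values of 0.487, 0.818 and 0.999. At an unadjusted p under 0.05 limma gave 12 of the 90 at 8 weeks (5.19% of all genes), 10 at 2 years (5.8%) and 2 for the average (3.5%). For 1 gene at 8 weeks, Cox8b, and 4 at 2 years, Ndufb10, Ndufv2, Uqcrh and Atp5l, named for this after their values were seen, the alpha7-deficient arrays all lay above the wild-type ones, against 0.583% and 0.687% of all genes. As deposited, the genotype difference lay above 0 for 12 of the 90 at 8 weeks and 78 at 2 years, against 49% and 49.6% of all genes. After quantile normalization it did for 34 and 68, against 48.7% and 54.4%, so the lean at 8 weeks was smaller under that scaling.

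Within groups the genes varied together from mouse to mouse. Over the 74 genes with a mean log2 signal of at least 9, the deviations from the group means on the 20 arrays had a median correlation between pairs of 0.55 as deposited and 0.21 after quantile normalization. The 74 genes share arrays and RNA, so this is a description. Pairs within complex I had 0.62 and then 0.36, those of the 4 genes of complex II 0.53 and then 0.44, those within complex III 0.48 and then 0.15, pairs within complex IV 0.60 and then 0.06, and pairs within complex V 0.49 and then 0.01. Probe sets gave a further measure of error. Of the 47 genes with several probe sets past the filter, 15 had probe sets that differed in sign for age in alpha7-deficient brains, among them Ndufa10, Sdha, Uqcrb, Atp5a1 and Atp5c1.

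Neighbouring pathways were read in the same fit from lists that were set with earlier results of these data known. No gene of these 9 lists was called for age in wild-type brains; the counts that follow are for alpha7-deficient brains, where 7.82% of all genes rose and 6.87% fell. Of 20 electron carriers and transporters that serve the chain, 6 rose and 0 fell (median 0.14), and after quantile normalization 2 rose and 1 fell; the 6 include Slc25a3, the phosphate carrier (0.33 (SE 0.0714, adjusted p = 0.00558)), Slc25a4, an ADP/ATP carrier (0.30, adjusted p = 0.0145), Vdac1, the outer membrane channel (0.33, adjusted p = 0.00721), and Coq9 of ubiquinone synthesis (0.22, adjusted p = 0.0287). Cycs, cytochrome c itself, gave -0.02 (adjusted p = 0.884). Of 18 genes of the citric acid cycle and pyruvate entry, 4 rose and 0 fell (median 0.13), and after quantile normalization 1 rose and 1 fell (median -0.0016). The 4 were led by Idh2, the NADP-dependent isocitrate dehydrogenase of mitochondria (0.53 (SE 0.135, adjusted p = 0.0129)), with Mdh2, malate dehydrogenase, at 0.36 (adjusted p = 0.0154). Of 13 glycolysis genes, which lie outside mitochondria, 6 rose and 0 fell (median 0.27), and after quantile normalization 0 were called. Assembly factors outside the naming rule were split, with 2 of 38 higher and 3 lower (median 0.04). Uqcc2, for complex III, rose by 0.60 (SE 0.158, adjusted p = 0.0159) and Surf1, for complex IV, by 0.40 (SE 0.11, adjusted p = 0.0183). Timmdc1, for complex I, fell, at -0.49 (SE 0.131, adjusted p = 0.016), as did Ttc19, for complex III, at -0.49 (SE 0.118, adjusted p = 0.00981), and Cox20, for complex IV, at -0.24 (SE 0.0788, adjusted p = 0.0455).

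Among 45 proteins of the large mitochondrial ribosomal subunit 7 rose and 3 fell (median 0.18). After quantile normalization 8 rose and 3 fell, with the same median of 0.18. Of 21 regulators of mitochondrial biogenesis and mitochondrial DNA expression, 0 rose and 3 fell (median -0.15): the coactivators Ppargc1a (-0.39 (SE 0.13, adjusted p = 0.0485)) and Ppargc1b (-0.27 (SE 0.0757, adjusted p = 0.0215)), and Gabpa (-0.44 (SE 0.129, adjusted p = 0.0271)), the DNA-binding subunit of GABP. After quantile normalization 2 of the 21 were called lower. Nrf1 and Tfam, an activator of respiratory genes and the packaging factor of mitochondrial DNA, gave 0.07 and 0.07 (adjusted p = 0.788 and 0.647). Of 21 import genes 1 rose and 1 fell. Of 17 genes of fission, fusion and turnover, 3 rose and 1 fell: Pink1, a kinase that marks damaged mitochondria (0.41 (SE 0.0804, adjusted p = 0.00293)), Fis1 (0.49), Clpp, a matrix protease (0.52), and Yme1l1, a protease of the inner membrane (-0.55 (SE 0.147, adjusted p = 0.0173)). Of the subunits encoded in mitochondrial DNA, ND5 of complex I was the 1 tested. It gave 0.21 (SE 0.0809, adjusted p = 0.0765) in alpha7-deficient and 0.15 (SE 0.0809, adjusted p = 0.439) in wild-type brains as deposited, and -0.19 in alpha7-deficient brains after quantile normalization.

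Markers of brain cell types and of blood were read beside these results. The 6 neuronal markers had a median difference of 0.08 with age in wild-type and 0.15 in alpha7-deficient brains, with 0 called in each; their summed log2 signal was 15.05 to 15.15 in young and 15.07 to 15.22 in aged wild-type brains, and 14.86 to 15.17 in young and 15.1 to 15.16 in aged alpha7-deficient brains. Of 6 astrocyte markers 0 were called in wild-type and 3 rose in alpha7-deficient brains (median 0.13), where the sum was 14.01 to 14.21 in young and 14.06 to 14.33 in aged brains. Of 6 microglia markers 1 rose in wild-type (median 0.34) and 3 in alpha7-deficient brains (median 0.65), with sums of 12.24 to 12.91, 12.47 to 12.97, 12.16 to 12.46 and 12.54 to 12.97 from young and aged wild-type to young and aged alpha7-deficient brains. Of 5 oligodendrocyte markers tested, 1 fell in wild-type brains, and 1 rose and 1 fell in alpha7-deficient brains. Of 6 blood markers 3 passed the filter, and their age differences had medians of 1.8 in wild-type and 1.68 in alpha7-deficient brains, with 0 called in each genotype and 3 of 3 called higher averaged over the genotypes. The blood sum was 7.23 to 8.36 in young and 8.24 to 10.83 in aged wild-type brains, and 6.93 to 8.29 in young and 8.05 to 11.47 in aged alpha7-deficient brains. Of 10 activity-regulated genes 0 were called, with medians of 0.13 in wild-type and -0.47 in alpha7-deficient brains. The tested markers of endothelium, ependyma and pituitary had 0 called in either genotype, and those of choroid plexus 1 of 5, higher in alpha7-deficient brains. The pituitary sum spread far more widely in wild-type brains, from 8.98 to 14.88 in young and from 8.48 to 14.42 in aged ones. In alpha7-deficient brains the pituitary sum was 8.02 to 9.05 in young and 7.92 to 8.99 in aged ones. Xist, which marks cells of female mice, was high (log2 signal above 9) on 9 of the 20 arrays: 2 of 5 young and 3 of 5 aged wild-type, and 3 of 5 young and 1 of 5 aged alpha7-deficient ones, so the sexes were unevenly spread over the groups. With its log2 signal as a covariate 27 respiratory chain genes rose with age in alpha7-deficient brains, and with the 3' to 5' ratio as a covariate 43 did, against 36 with neither. The shares of all genes called in the covariate fits are not given here, so those counts have no background beside them. The part of cell type shares, of blood and of pituitary signal in the result was not tested.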

How the data were processed

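Total RNA of whole brain from 20 mice was measured on an Affymetrix mouse expression array. Per the submitters' processing notes, MAS5 made the values, and the deposited table holds 1 intensity per probe set and array, on a linear scale, as the authors deposited it; no version is stated. The trimmed means of the arrays agree, leaving out 2% at each end. The number of arrays, 5 in each of 4 groups, limits the precision.

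Signals were taken to log2. Probe sets with a single gene symbol were kept, the brightest on average for each gene, without the 64 control probe sets, and genes with a mean under the 40th percentile (a signal of 43.6) were left out. Symbols were checked through gene identifiers against RefSeq: 91 of 91 were found and 0 changed. limma 3.58.1 in R 4.3.3 (lmFit, eBayes with an intensity trend) fitted 4 group means with 16 residual degrees of freedom, and p-values were adjusted over all 13389 genes (Benjamini-Hochberg); all tests are two-sided. In simulated data for age in alpha7-deficient brains, on 13389 genes with 200 changed, 18.3% of 1.25-fold, 61.5% of 1.5-fold and 81.2% of 2-fold changes were recovered, with 2.78% false calls. The simulated noise was independent between genes, while the respiratory chain genes varied together within groups. More genes were called in the data than were changed there, so these rates may not carry over.

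Values on every array are given for the 3 genes of each complex with the smallest adjusted p for age averaged over the genotypes, the 1 with the smallest p for the difference between age effects, the brightest gene of each complex, Sdha to Sdhd, the 2 with the largest rise and the 2 with the largest fall for age in each genotype, and Chrna7. Other genes named come from the lists and counts. The genes, lists and this rule were chosen with earlier results of these data known. Probe sets with several symbols were left out; 10 of them name a respiratory chain gene. Alternatives were quantile and cyclic loess normalization, median centring, other filters and a floor, other probe set choices, no intensity trend, array weights, 2 covariates, and leaving out arrays.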

Additional observations from a re-analysis of the deposited data

Results flagged for a closer look

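In 132 checks of a gene or complex within a group of 5 arrays, 7 had an array whose gap to its nearest neighbour exceeded 0.71 of the group's range, Dixon's critical value; chance gives about 1 in 20.

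Ndufaf8 read 10.27 on aged wild-type replicate 2, above the next value of 9.97. Ndufb9 read 12.71 on young alpha7-deficient replicate 4, above 12.49. Sdhb read 12.05 on aged wild-type replicate 3, above 11.97, and 11.92 on young alpha7-deficient replicate 4, above 11.77. Sdhd read 9.51 on young alpha7-deficient replicate 5, below 10.20. Atp5c1 read 12.73 on young wild-type replicate 5, above 12.34. The complex II level of aged wild-type replicate 1 was -0.091, below 0.037.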

How the results depend on the processing

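No paired analysis was possible because the labels number each animal once and no number is shared between groups. Cyclic loess, and quantile normalization together with leaving out the 3 mice, were chosen after seeing the data.

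For the 27 respiratory chain genes given on every array, the age differences in alpha7-deficient brains, and those in wild-type brains or averaged over the genotypes that passed the threshold under at least 1 setting, were compared over all alternatives: 1534 values kept direction and side of the threshold, 139 lost the call, 31 gained it and 24 turned direction. The other 30 wild-type and averaged differences were called under no setting; 6 of them turned direction after quantile normalization and 14 under at least 1 setting. The count of genes called for age in alpha7-deficient brains, 36 as deposited, was 15 after quantile normalization, 17 after cyclic loess, 21 without probe sets marked as shared, 21 without the 3 mice, and 5 without them after quantile normalization. Its median of 0.27 was 0.0951, 0.147 and 0.0632 after quantile normalization, cyclic loess, and quantile normalization without the 3 mice. The averaged count of 26 was 8 after median centring, 49 with array weights and 17 after cyclic loess. After cyclic loess 7.16% of all genes rose and 6.95% fell in alpha7-deficient brains, and 8.98% and 8.9% averaged over the genotypes. For median centring, array weights and the fit without shared probe sets, the shares of all genes called are not given here. In wild-type brains the count of 1 was 3 with array weights and 2 without the 3 mice under both scalings. With no intensity trend 1 gene was called for genotype at 8 weeks. The genotype median at 2 years, 0.12, was 0.26 after median centring. The median difference between age effects, 0.21, was 0.0839 after quantile normalization, 0.35 after median centring, 0.0807 without the 3 mice and 0.0189 with both changes.

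Leaving out an array at a time, the alpha7-deficient count ran from 17 to 46, the averaged count from 19 to 43 and the wild-type count from 1 to 2; 16 of the 36 and 19 of the 26 calls were kept in every such fit. The genotype and interaction counts were 0 in each. Shares over all genes are not given here for the fits that left out an array.

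Of the compared values these 24 turned direction. In alpha7-deficient brains Ndufaf2 was -0.0134 without the 3 mice and -0.0054 with quantile normalization as well; Uqcrb was -0.21 after quantile normalization, -0.14 without shared probe sets, -0.0607 after cyclic loess and -0.18 after quantile normalization without the 3 mice. Cox7a2 was -0.11 and -0.12, and Atp5g3 -0.091 and -0.090, after quantile normalization with and without the 3 mice. Atp5c1 was -0.64 without shared probe sets and -0.17 as the mean over probe sets. Averaged over the genotypes, Uqcrb was -0.1844 after quantile normalization, -0.162 without shared probe sets, -0.0513 as the mean over probe sets, -0.0602 after cyclic loess and -0.1693 after quantile normalization without the 3 mice, and Cox7a2 was -0.1206 and -0.1299 after quantile normalization with and without the 3 mice; both were called lower in those quantile-normalized fits. Also averaged, Uqcr10 was -0.0771 and Atp5c1 -0.22 without shared probe sets, Atp5c1 was -0.0096 as the mean over probe sets, and Atp5g3 was -0.0506 and -0.0528 after quantile normalization with and without the 3 mice. The cause was not tested.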
